A study of Homo sapiens with 6 samples.

Results

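The receptor tyrosine kinases of A673 cells, a line derived from a Ewing sarcoma, were followed while the line's fusion oncogene EWSR1::FLI1 was silenced. The 48 receptors were chosen by gene symbol from the 26364 genes measured. They cover the ERBB, PDGF, FGF, neurotrophin, ROR, TAM, TIE, EPH, DDR, ALK and insulin receptor families and several receptors without close relatives. The receptors for VEGF, IGF and HGF are not among them.

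These receptors cross the plasma membrane once and carry a kinase domain on the inside. A ligand, either secreted or displayed on a neighbouring cell, brings the receptor chains together so that they phosphorylate each other and recruit adaptor proteins to the MAPK and PI3K pathways. In Ewing sarcoma this class is best known for the IGF1 receptor, while PDGFRA, PDGFRB, EGFR and AXL are familiar receptors of mesenchymal cells and of kinase inhibitor studies.

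All 6 samples were the A673/TR/shEF derivative, in which an shRNA against EWSR1::FLI1 is expressed when doxycycline is added. The 3 EWSR1::FLI1 high samples received no doxycycline, and the 3 EWSR1::FLI1 low samples received 1 µg/mL for 72 h. All samples therefore carried the shRNA construct, and none was a doxycycline-treated cell without it, so an effect of doxycycline itself cannot be told apart from that of the shRNA. The data come from 1 cell line, and the labels do not settle whether replicates 1 to 3 were separate clones or repeated experiments, so p-values measure the spread between these samples, which may be technical.

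Expression was measured by RNA sequencing as FPKM, fragment numbers scaled to gene length and to a size factor for each library. There were 6980361 to 16658933 reads on genes per sample. The size factor was not in proportion to these reads. It was 0.951 for EWSR1::FLI1 low replicate 1 with 6980361 reads, and 0.829 for EWSR1::FLI1 high replicate 3 with 8359615 reads. Summed FPKM depends on this factor. FLI1, whose 3' part lies in the fusion, stood at 12.7 ± 1.43 FPKM (SD, n = 3) in EWSR1::FLI1 high and fell to 3.63 ± 0.696 FPKM in EWSR1::FLI1 low (log2 fold change -1.57, SE 0.18, adjusted p = 0.000676). The 5 marker genes of the line summed to 512 to 525 FPKM in EWSR1::FLI1 high and to 155 to 180 FPKM in EWSR1::FLI1 low, with 4 of the 5 falling. Of 17 markers of leukocyte, endothelial, epithelial or glial cells, 11 were too scarce to be tested, and none of the others passed the test. PECAM1, an endothelial marker, came closest (log2 fold change 0.66, adjusted p = 0.0333), and only EPCAM had a negative estimate (-0.13). Each of these 4 lists summed to at most 20.3 FPKM in any sample. Endothelial sums were 0.89 to 1.26 FPKM in EWSR1::FLI1 high and 1.53 to 2.86 FPKM in EWSR1::FLI1 low. They did not overlap, while those of the other lists did. One library stood apart: replicate 1 of EWSR1::FLI1 low summed to 256000 FPKM over all genes, against 335000 to 366000 in the other 5, and scarce genes had a median of 0.372 FPKM there, against 0.149 to 0.238. Its part in the results was not tested beyond leaving it out.

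On silencing of EWSR1::FLI1, 6 receptors rose and 0 fell. Those that rose were PDGFRA, PDGFRB, EGFR, AXL, ROR1 and EPHB2, by 2.58-fold to 20-fold between group means. The test was limma on log2(FPKM + 1), run on the 15504 genes with a mean of at least 0.5 FPKM, and a gene was called at a Benjamini-Hochberg adjusted p below 0.01. Of the 33 receptors that passed this filter 18.2% were called higher, beside 4.51% of all genes tested, and none was called lower, beside 3.37%. The receptors were chosen with earlier results of these data known, so these shares do not test for enrichment. In either direction 7.88% of all genes were called. At an unadjusted p below 0.05, 12 of the 33 receptors were higher and 5 lower, beside 2415 and 2900 of the 15504 genes (15.6% and 18.7%). Limma-voom on the recovered read numbers called 2 of the 33 lower, beside 784 of the 15504 genes (5.06%). At a limit of 0.05 on the adjusted p, 9 of the 33 were higher and 3 lower, beside 1530 and 1537 of the 15504 genes (9.87% and 9.91%). Receptors divided about evenly around 0: the median log2 fold change was -0.01, beside -0.05 over all genes, and 16 of the 33 were positive, beside 45.2% of all genes. In 12 receptors (36.4%) all EWSR1::FLI1 low samples lay above all EWSR1::FLI1 high samples, beside 17.5% of all genes, and in 7 (21.2%) they lay below, beside 23.6%. That made 19 receptors without overlap, beside 41.1% of all genes. Without EWSR1::FLI1 low replicate 1, 7 receptors were called higher, FGFR1 being added, and 3 lower, EPHA5, ERBB4 and RET. Over all 15504 genes that fit called 1452 higher and 726 lower. The number called higher was 2, 1 and 1 without EWSR1::FLI1 high replicates 1, 2 and 3, and 4 and 2 without EWSR1::FLI1 low replicates 2 and 3, and PDGFRA was called in each of these fits. Over all genes the same fits called 374, 287, 322, 553 and 419 higher, in that order. The added 1 in log2(FPKM + 1) shrinks the fold changes of scarce genes relative to their ratios of FPKM.

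**Figure D1:**
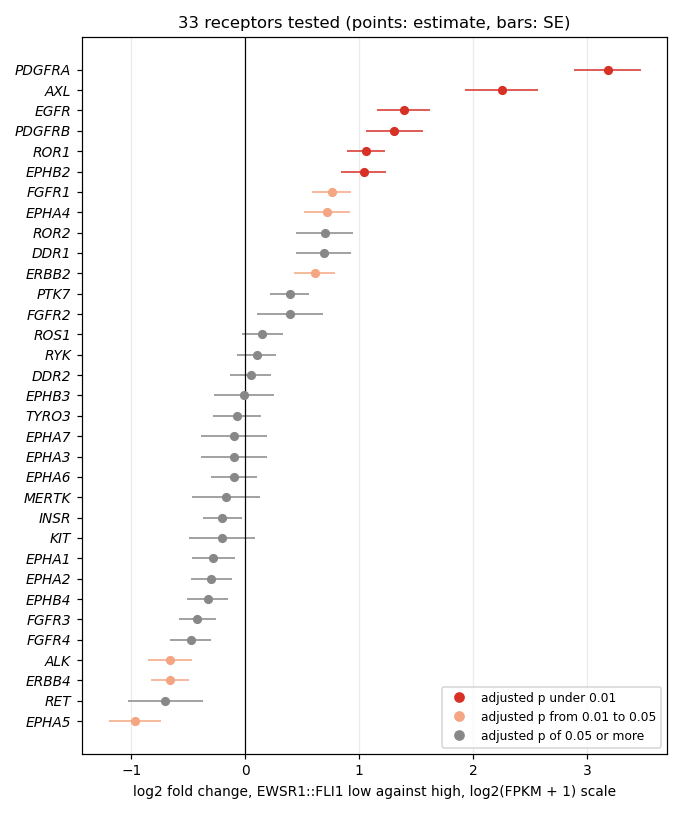
Log2 fold change of log2(FPKM + 1), EWSR1::FLI1 low against high, for the 33 tested receptors (points, limma estimates; bars, SE; red, adjusted p below 0.01; salmon, 0.01 to 0.05; grey, above). The 6 called receptors lie between 1.04 and 3.18, and the lowest estimate is that of EPHA5 at -0.97.

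PDGFRA, the PDGF receptor that binds the PDGF-A chain, moved most among the receptors. It was found at 1.06, 0.649 and 0.786 FPKM in EWSR1::FLI1 high, against 23.2, 9.18 and 17.5 FPKM in EWSR1::FLI1 low, or 34 to 73 reads against 495 to 1793. The groups were far apart, and the lowest EWSR1::FLI1 low sample was several times the highest EWSR1::FLI1 high one. The means were 0.831 ± 0.208 and 16.6 ± 7.03 FPKM (SD, n = 3), a ratio of 20 and a log2 fold change of 3.18 (SE 0.29, adjusted p = 0.000242). With any 1 library left out the call stood (log2 fold change 2.91 to 3.54, adjusted p at most 0.00316). Its paralogue PDGFRB, which binds the PDGF-B chain and is the PDGF receptor of pericytes and fibroblasts, was already well expressed. It went from 13.2, 7.82 and 11.1 FPKM to 36.6, 24.8 and 22.8 FPKM, and the groups did not overlap. PDGFRB rose 2.62-fold, from 10.7 ± 2.71 to 28.0 ± 7.43 FPKM (log2 fold change 1.31, SE 0.25, adjusted p = 0.00797). That call was close to the limit. It was lost without EWSR1::FLI1 high replicate 1, 2 or 3 (adjusted p = 0.0154, 0.0455 and 0.0359) and without EWSR1::FLI1 low replicate 2 or 3 (0.015 and 0.0136), each time with a log2 fold change of 1.12 to 1.46. It was also lost with quantile normalization (0.0193) and without a filter (0.0162).

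AXL, a TAM receptor that binds GAS6, was scarce in EWSR1::FLI1 high, at 0.311, 0.666 and 0.553 FPKM (16 to 26 reads). In EWSR1::FLI1 low it reached 3.05, 7.91 and 9.12 FPKM (133 to 696 reads), again with no overlap. The means of 0.510 ± 0.181 and 6.69 ± 3.21 FPKM (SD, n = 3) differed 13.1-fold (log2 fold change 2.25, SE 0.32, adjusted p = 0.0019). Without EWSR1::FLI1 high replicate 2 or 3 the adjusted p was 0.011 and 0.0109, at log2 fold changes of 2.32 and 2.27. The other TAM receptors did not pass the test. TYRO3 lay at 7.32, 6.10 and 7.64 FPKM against 5.07, 6.33 and 8.86 FPKM (adjusted p = 0.847), and MERTK, the receptor of phagocytes that clear apoptotic cells, at 11.9, 9.83 and 12.3 FPKM against 16.1, 5.99 and 9.80 FPKM (adjusted p = 0.731). In EWSR1::FLI1 high AXL was thus the scarcest of the 3, and in EWSR1::FLI1 low its mean of 6.69 FPKM stood beside 6.75 ± 1.93 FPKM for TYRO3.

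EGFR, the receptor for EGF and related ligands, measured 0.928, 0.955 and 0.688 FPKM in EWSR1::FLI1 high and 2.64, 5.66 and 3.72 FPKM in EWSR1::FLI1 low. The groups did not overlap, and the mean rose 4.67-fold, from 0.857 ± 0.147 to 4.01 ± 1.53 FPKM (SD, n = 3; log2 fold change 1.39, SE 0.23, adjusted p = 0.00382). Left-out libraries took the adjusted p above 0.01 for EWSR1::FLI1 high replicates 1, 2 and 3 (0.0127, 0.0203 and 0.0232) and EWSR1::FLI1 low replicate 3 (0.0158), with log2 fold changes of 1.32 to 1.43, and it was 0.013 without a filter. EGFR-AS1, an antisense gene overlapping EGFR, had 4 to 11 reads per library, with overlapping groups. The family did not move as one. ERBB2, the ERBB receptor without a ligand of its own, lay at 1.32, 0.913 and 1.62 FPKM against 2.09, 2.53 and 2.81 FPKM (log2 fold change 0.61, adjusted p = 0.0427). ERBB4, a neuregulin receptor, lay at 4.20, 4.19 and 4.19 FPKM against 2.93, 1.86 and 2.13 FPKM (log2 fold change -0.66, adjusted p = 0.0267). Neither group pair overlapped, yet neither passed the limit of 0.01. ERBB4 passed it when EWSR1::FLI1 low replicate 1 was left out, with a log2 fold change of -0.79 and an adjusted p of 0.00664.

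The 250 bases before an annotated transcript start of each of the 3 genes with the largest receptor fold changes are shown because FLI1 is an ETS factor and ETS factors bind around a GGAA core. Capitals mark each GGAA, or TTCC where the core is on the other strand. They are RefSeq promoter sequences, found by exact match in GRCh37 on the plus strand at chr4:55095210-55095459, chr19:41724878-41725127 and chr7:55086460-55086709.
PDGFRA: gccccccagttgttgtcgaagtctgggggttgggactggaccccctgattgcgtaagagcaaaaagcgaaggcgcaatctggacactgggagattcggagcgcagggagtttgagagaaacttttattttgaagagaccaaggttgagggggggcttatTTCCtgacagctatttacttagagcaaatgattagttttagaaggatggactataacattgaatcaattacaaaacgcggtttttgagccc
AXL: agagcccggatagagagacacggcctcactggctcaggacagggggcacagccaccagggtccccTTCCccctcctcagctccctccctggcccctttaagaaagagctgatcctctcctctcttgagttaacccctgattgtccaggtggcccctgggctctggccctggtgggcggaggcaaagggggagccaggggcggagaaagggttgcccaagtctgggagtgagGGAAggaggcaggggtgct
EGFR: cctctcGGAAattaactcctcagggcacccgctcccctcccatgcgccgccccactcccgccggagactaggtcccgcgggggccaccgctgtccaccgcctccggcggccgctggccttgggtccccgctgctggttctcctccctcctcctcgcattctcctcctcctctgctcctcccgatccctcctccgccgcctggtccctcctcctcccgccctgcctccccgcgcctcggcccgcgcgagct
The PDGFRA stretch held 1 core and 46.8% G + C, the AXL stretch 2 cores and 64.4%, and the EGFR stretch 1 core and 73.6%. The genes lie at chr4:55095447-55164412, chr19:41725128-41767671 and chr7:55086710-55279321 in GRCh37, so the last bases of the PDGFRA stretch lie inside the gene, after its most upstream start. EWSR1::FLI1 is known to bind GGAA repeats, and the doubled core GGAAGGAA is the shortest such repeat by letters, not a known binding minimum. This doubled core, or its complement TTCCTTCC, was sought in windows of 300 bases around the starts (250 before, 50 after, RefSeq, GRCh38.p14). It was in 0 of the 76 windows of the 44 receptors matched, beside 3.67% of 35116 windows of all genes, which says only that these letters are not in these windows. The single-site ETS motif CCGGAAG or CTTCCGG was in windows of ERBB2, LTK and MST1R, 3 of 76, beside 10.3% of all windows. The AP-1 motif TGACTCA or TGAGTCA was in windows of CSF1R, DDR1, DDR2 and EGFR, 4 of 76, beside 4.95%. None of these motifs was tested for binding. ERBB3, FGFR1, EPHA10 and INSRR had no window in the table.

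ROR1, an embryonic WNT5A receptor re-expressed in several tumours, had replicates close to each other in both groups. It lay at 2.39, 1.79 and 2.26 FPKM in EWSR1::FLI1 high, against 6.33, 4.82 and 5.51 FPKM in EWSR1::FLI1 low, with no overlap. ROR1 rose 2.58-fold, from 2.15 ± 0.314 to 5.55 ± 0.755 FPKM (SD, n = 3; log2 fold change 1.06, SE 0.17, adjusted p = 0.00334). The adjusted p passed 0.01 without EWSR1::FLI1 high replicates 1, 2 and 3 (0.0134, 0.0257 and 0.0182) and without EWSR1::FLI1 low replicate 3 (0.0117), at log2 fold changes of 0.97 to 1.11, and was 0.0124 without a filter. Its relative ROR2 lay at 6.47, 5.64 and 5.99 FPKM against 16.0, 7.65 and 9.12 FPKM, also without overlap, but did not pass (log2 fold change 0.70, adjusted p = 0.0821). RYK and PTK7, WNT co-receptors whose kinase domains are inactive, were among the most abundant receptors. RYK lay at 38.5, 40.3 and 36.8 FPKM against 39.2, 39.6 and 45.6 FPKM (adjusted p = 0.72), and PTK7 at 17.7, 16.2 and 16.7 FPKM against 23.9, 20.9 and 22.4 FPKM (log2 fold change 0.39, adjusted p = 0.134).

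The EPH receptors, which read ephrins on neighbouring cells and guide cell sorting and axons, form the largest family, and 1 of its 10 tested members was called, beside 7.88% of all genes. EPHB2 lay at 0.837, 0.807 and 0.725 FPKM in EWSR1::FLI1 high, against 1.92, 3.70 and 2.63 FPKM in EWSR1::FLI1 low. The groups did not overlap, and EPHB2 rose 3.48-fold, from 0.790 ± 0.058 to 2.75 ± 0.898 FPKM (SD, n = 3; log2 fold change 1.04, SE 0.20, adjusted p = 0.00795). The call was lost without EWSR1::FLI1 high replicates 1, 2 and 3 (adjusted p = 0.0278, 0.0383 and 0.0391) and without EWSR1::FLI1 low replicates 2 and 3 (0.0191 and 0.0239), at log2 fold changes of 0.86 to 1.06, and also with quantile normalization (0.0157) and without a filter (0.0224). EPHA4, the most promiscuous ephrin receptor, lay at 16.7, 11.9 and 15.7 FPKM against 28.6, 22.0 and 23.9 FPKM (log2 fold change 0.72, adjusted p = 0.0355). EPHA5, a neural EPH receptor, lay on the other side, at 5.74, 5.29 and 7.22 FPKM against 3.53, 1.62 and 2.91 FPKM (log2 fold change -0.97, adjusted p = 0.0193). Both kept their groups apart without passing the limit, and EPHA5 passed it when EWSR1::FLI1 low replicate 1 was left out (-1.14, adjusted p = 0.00822) and with limma-voom (-1.23, adjusted p = 0.00789).

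EPHA3, EPHB4 and EPHA2 were also abundant, and none was called. EPHA3, first known from leukaemia cells, lay at 35.1, 32.7 and 33.6 FPKM against 36.2, 19.1 and 44.9 FPKM (adjusted p = 0.85), so that the wide EWSR1::FLI1 low values enclosed the narrow EWSR1::FLI1 high ones. EPHB4, the venous receptor for ephrin-B2, lay at 17.6, 16.8 and 21.1 FPKM against 15.0, 12.9 and 15.7 FPKM (log2 fold change -0.33, adjusted p = 0.236). EPHA2, an epithelial and tumour receptor, lay at 15.6, 12.9 and 16.1 FPKM against 10.7, 12.8 and 12.1 FPKM (log2 fold change -0.30, adjusted p = 0.265). In EPHB4 and EPHA2 all EWSR1::FLI1 low samples were below all EWSR1::FLI1 high samples, by less than the test required. EPHA7, EPHA6, EPHA1 and EPHB3 had overlapping groups, with log2 fold changes from -0.28 to -0.01 and adjusted p-values of 0.329 to 0.98.

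**Figure D2:**
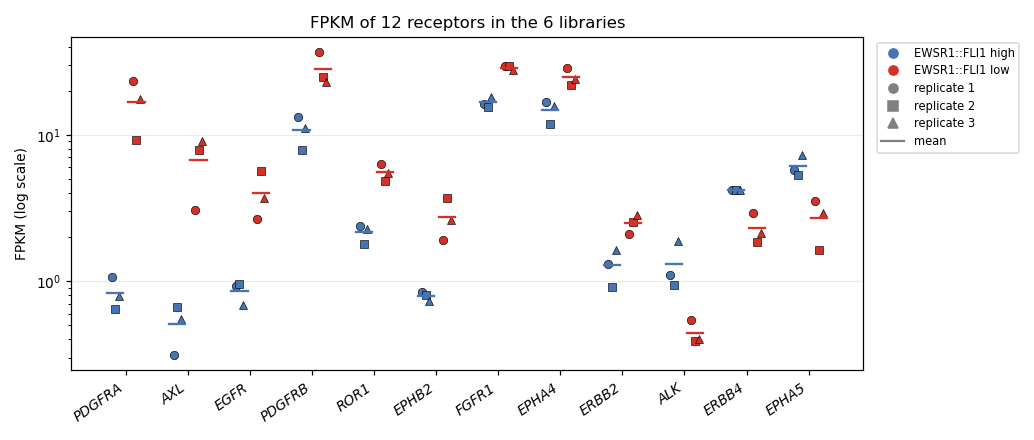
FPKM (log axis) of 12 receptors in each of the 6 libraries, EWSR1::FLI1 high beside EWSR1::FLI1 low (points, libraries, with the marker shape giving the replicate number; lines, group means). The groups are apart in all 12, upwards in PDGFRA, AXL, EGFR, PDGFRB, ROR1, EPHB2, FGFR1, EPHA4 and ERBB2 and downwards in ALK, ERBB4 and EPHA5, and only the first 6 passed the adjusted p limit of 0.01.

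FGFR1, the FGF receptor of mesenchyme, came closest to the limit among the uncalled receptors. It lay at 16.2, 15.4 and 18.2 FPKM in EWSR1::FLI1 high, against 29.5, 29.3 and 27.6 FPKM in EWSR1::FLI1 low, with means of 16.6 ± 1.42 and 28.8 ± 1.04 FPKM (SD, n = 3). The groups were well apart, and the log2 fold change was 0.76 (SE 0.17, adjusted p = 0.0153). It passed the limit with median-ratio scaling (0.84, adjusted p = 0.00437), with quantile normalization (0.90, adjusted p = 0.00963), with limma-voom (0.79, adjusted p = 0.00869) and without EWSR1::FLI1 low replicate 1 (0.74, adjusted p = 0.00658). FGFR3, the receptor mutated in achondroplasia, lay at 1.03, 0.905 and 1.13 FPKM against 0.532, 0.412 and 0.593 FPKM (log2 fold change -0.42, adjusted p = 0.0944). FGFR4, the receptor of FGF19 in liver, lay at 1.13, 0.860 and 0.604 FPKM against 0.210, 0.380 and 0.400 FPKM (log2 fold change -0.48, adjusted p = 0.0901). These groups were apart at low levels, while those of FGFR2 overlapped (log2 fold change 0.39, adjusted p = 0.383). The 4 FGF receptors thus had estimates on both sides of 0.

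ALK, the receptor of ALKAL ligands that is activated by mutation in neuroblastoma, lay at 1.1, 0.941 and 1.88 FPKM against 0.539, 0.389 and 0.400 FPKM, on 47 to 91 and 20 to 39 reads. The groups did not overlap, and the log2 fold change of -0.66 missed the limit (adjusted p = 0.0427). ALK passed it with limma-voom (log2 fold change -1.50, adjusted p = 0.00892). RET, the GDNF-family receptor, lay at 6.69, 4.75 and 7.27 FPKM against 6.72, 2.48 and 2.18 FPKM. The EWSR1::FLI1 low group was split, with replicate 1 inside the EWSR1::FLI1 high range, and the log2 fold change was -0.70 (adjusted p = 0.168). Without that library it was -1.1 (adjusted p = 0.00579). KIT, the receptor of stem cell factor, lay at 2.10, 2.38 and 3.37 FPKM against 1.15, 1.91 and 3.86 FPKM, with overlapping groups (adjusted p = 0.678).

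The collagen receptor DDR2 was the third most abundant receptor in both groups, at 33.6, 28.2 and 32.7 FPKM against 29.8, 35.1 and 33.2 FPKM (adjusted p = 0.872). Its relative DDR1, the collagen receptor of epithelia, was scarce, at 0.772, 0.688 and 0.986 FPKM against 1.12, 3.02 and 1.91 FPKM. The DDR1 groups were apart, and the log2 fold change was 0.69 (adjusted p = 0.0733). The insulin receptor INSR (log2 fold change -0.20, adjusted p = 0.437) and ROS1, a receptor for NELL2 (0.15, adjusted p = 0.613), had overlapping groups.

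Summed over the 48 receptors, FPKM was 279, 246 and 280.5 in EWSR1::FLI1 high and 370, 299 and 347 in EWSR1::FLI1 low (269 ± 19.2 and 338 ± 36.4, SD, n = 3). RYK, EPHA3 and DDR2 held the first 3 ranks by mean in both groups. The 5 most abundant receptors of EWSR1::FLI1 high, which add EPHB4 and PTK7, made up 51.9% ± 2.25 of receptor FPKM there and 42.8% ± 3.84 in EWSR1::FLI1 low. PDGFRB went from rank 10 to rank 5, at 3.95% and 8.25% of receptor FPKM, and EPHB4 from rank 4 to rank 9. These shares were described and not tested.

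**Figure D3:**
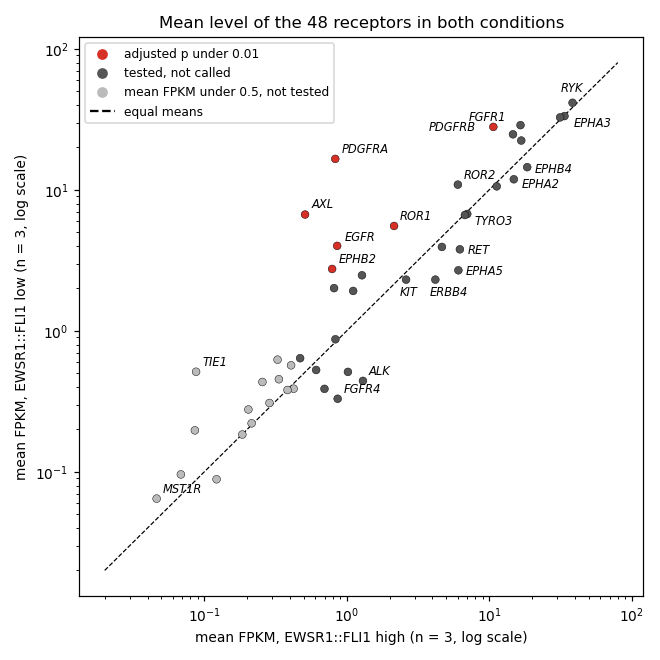
Mean FPKM of the 48 receptors in EWSR1::FLI1 high (horizontal, log axis) and EWSR1::FLI1 low (vertical, log axis), with the dashed line of equal means. PDGFRA (0.831 and 16.6 FPKM) and AXL (0.510 and 6.69 FPKM) lie farthest above the line among the tested receptors, and RYK, EPHA3 and DDR2 lie near it at the top.

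Under the filter, and not tested, were 15 receptors: ERBB3, CSF1R, FLT3, NTRK2, NTRK3, MUSK, MST1R, TEK, TIE1, EPHA8, EPHA10, EPHB1, EPHB6, LTK and INSRR. They had mean levels of 0.0554 to 0.489 FPKM and 0 to 123 reads per library, and 5 of them had no more than 3 reads in some library. The receptor just under the filter was LTK at a mean of 0.489 FPKM and the one just above it EPHA1 at 0.543 FPKM. Only TIE1, an endothelial receptor, kept its groups apart, at 0.0718, 0.126 and 0.0648 FPKM against 0.395, 0.949 and 0.193 FPKM, or 2 to 4 reads against 12 to 31. Of the tested receptors, 4 reached 0.5 FPKM in the mean of 1 group only (FGFR4, EPHA1, ROS1 and ALK), and none of them was called.

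The ligands were a list of 69 genes, of which 42 were tested. Of these 7 rose and 2 fell (16.7% and 4.76%, beside 4.51% and 3.37% of all genes). This list too was chosen with earlier results of these data known. The median log2 fold change was 0.55 and 30 of the 42 were positive, beside -0.05 and 45.2% over all genes. The list included FGF11, FGF12, FGF13 and FGF14, intracellular FGF-related proteins that are not secreted ligands. They had log2 fold changes of -0.54, -0.03, -0.48 and -1.01, and none was called. FGF14 was among those called lower with limma-voom (adjusted p = 0.0065) and without EWSR1::FLI1 low replicate 1 (0.00423). Some ligands, such as EREG, PDGFB, IL34 and GAS6, reached 0.5 FPKM in the mean of EWSR1::FLI1 low only. The filter itself favours a positive estimate for these, and a negative one for any that reached it in EWSR1::FLI1 high only. The ligands called higher numbered 3, 2 and 3 without EWSR1::FLI1 high replicates 1, 2 and 3, and 13, 6 and 3 without EWSR1::FLI1 low replicates 1, 2 and 3. Ligands called lower numbered 0 without any 1 of the EWSR1::FLI1 high replicates, and 5, 1 and 1 without the EWSR1::FLI1 low replicates in the same order. Over all genes 200, 157 and 156 were lower, and then 726, 279 and 691. Pleiotrophin (PTN), a heparin-binding factor linked to ALK and to receptor phosphatases, moved most. It lay at 0.678, 0.568 and 1.09 FPKM in EWSR1::FLI1 high, against 24.7, 18.2 and 19.9 FPKM in EWSR1::FLI1 low, wholly apart. PTN rose 26.9-fold (log2 fold change 3.62, SE 0.19, adjusted p = 2.43e-05) and was called whichever library was left out. Midkine (MDK), its relative, rose 1.89-fold from a high level of 42.6 ± 2.74 to 80.4 ± 6.93 FPKM (SD, n = 3; log2 fold change 0.90, adjusted p = 0.00784). The MDK call was lost in 5 of 6 fits with a library left out, all but the one without EWSR1::FLI1 low replicate 1, with adjusted p of 0.0135 to 0.056, and without a filter (0.0118). Of the 5 genes listed as ligands of ALK, LTK and ROS1, 3 were tested, PTN, MDK and NELL2. No ALKAL ligand of ALK was among those tested.

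PDGFA, a ligand of PDGFRA, lay at 6.01, 6.35 and 5.93 FPKM in EWSR1::FLI1 high, against 14.2, 33.8 and 18.4 FPKM in EWSR1::FLI1 low. PDGFA rose 3.63-fold with no overlap (log2 fold change 1.61, SE 0.29, adjusted p = 0.00555). The call was lost without EWSR1::FLI1 high replicates 1, 2 and 3 (adjusted p = 0.0208, 0.0298 and 0.0302) and without EWSR1::FLI1 low replicate 3 (0.0169), at log2 fold changes of 1.6 to 1.7, and without a filter (0.0138). The other PDGF genes did not pass: PDGFB had a log2 fold change of 1.07 (adjusted p = 0.0668), PDGFC of 0.34 (0.327) and PDGFD of -0.67 (0.0801). When EWSR1::FLI1 low replicate 1 was left out PDGFD passed the limit (-0.92, adjusted p = 0.00843). PDGFC was the most abundant of the 4 in both groups, with 23.0 ± 1.73 and 30.2 ± 8.81 FPKM.

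BDNF, the ligand of NTRK2, rose from 1.08 ± 0.0156 to 4.75 ± 1.14 FPKM (SD, n = 3; log2 fold change 1.45, adjusted p = 0.00112) and kept its call whichever library was left out. NTRK2 itself was not tested, at means of 0.334 and 0.454 FPKM. FGF1, a ligand of all FGF receptors, rose from 0.923 ± 0.0558 to 4.95 ± 1.87 FPKM (log2 fold change 1.58, adjusted p = 0.00206). ANGPT1, the agonist of TEK, rose from 4.22 ± 0.856 to 16.0 ± 4.80 FPKM (log2 fold change 1.68, adjusted p = 0.0019), while TEK stayed untested at means of 0.215 and 0.221 FPKM. PROS1, protein S, a ligand of TYRO3 and MERTK, rose from 15.8 ± 1.75 to 36.2 ± 6.40 FPKM (log2 fold change 1.14, adjusted p = 0.00524). FGF1 lost its call without EWSR1::FLI1 high replicates 2 and 3 and EWSR1::FLI1 low replicate 3 (adjusted p = 0.0149, 0.0127 and 0.011). ANGPT1 lost it without EWSR1::FLI1 high replicates 1 and 2 (0.0101 and 0.016). PROS1 lost it in every fit with a library left out but the one without EWSR1::FLI1 low replicate 1 (0.0124 to 0.0366).

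For EGFR the ligands were uneven. HBEGF had 10.7, 17.2 and 16.1 FPKM against 21.5, 125.6 and 55.2 FPKM, with groups apart and with a log2 fold change of 1.82 that missed the limit (adjusted p = 0.041). EREG had a log2 fold change of 1.22 (adjusted p = 0.0676), EGF of -0.58 (0.144), TGFA of -0.04 (0.91) and NRG1, a ligand of ERBB4, of 1.13 (0.159). GAS6, a ligand of AXL, lay at 0.451, 0.297 and 0.255 FPKM against 0.399, 1.40 and 1.54 FPKM, with overlapping groups (log2 fold change 0.62, adjusted p = 0.107). WNT5A, the ligand of ROR1 and ROR2, lay at 7.22, 5.22 and 7.61 FPKM against 5.56, 22.0 and 17.7 FPKM (log2 fold change 0.89, adjusted p = 0.167). In GAS6 and WNT5A the EWSR1::FLI1 low replicate 1 was the sample inside the EWSR1::FLI1 high range. With that library left out the log2 fold change was 0.89 for GAS6 (adjusted p = 0.00459), 1.45 for WNT5A (0.00166), 2.46 for HBEGF (0.00212) and 1.71 for EREG (0.00428). That fit called 1452 genes higher over all, against 700 in the main fit. With any other library left out none of these ligands passed. The adjusted p was then 0.175 to 0.261 for GAS6, 0.247 to 0.404 for WNT5A, 0.0695 to 0.114 for HBEGF and 0.119 to 0.18 for EREG.

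Among the ephrins, EFNB1, a ligand of EPHB receptors, lay at 22.7, 20.7 and 26.9 FPKM in EWSR1::FLI1 high, against 10.0, 6.74 and 10.9 FPKM in EWSR1::FLI1 low. EFNB1 fell 2.54-fold (log2 fold change -1.27, SE 0.22, adjusted p = 0.00456), and lost its call without EWSR1::FLI1 high replicates 1, 2 and 3 (adjusted p = 0.0208, 0.0212 and 0.0299) and without EWSR1::FLI1 low replicate 2 (0.0134). EFNA1, a ligand of EPHA receptors, had a log2 fold change of 1.62 (adjusted p = 0.015), which was 1.15 and passed the limit without EWSR1::FLI1 low replicate 2 (adjusted p = 0.00685). With a pseudocount of 0.1 EFNA1 also passed (2.18, adjusted p = 0.00841). EFNA5 had a log2 fold change of 0.77 and just missed it (adjusted p = 0.0107), while a pseudocount of 0.1, median-ratio scaling and limma-voom each brought it past (adjusted p = 0.00877, 0.00763 and 0.00509). KITLG, the ligand of KIT, lay at 4.53, 4.08 and 4.60 FPKM against 6.72, 19.7 and 16.3 FPKM (log2 fold change 1.38, adjusted p = 0.0208). NELL2, the ligand of ROS1 and the most abundant ligand here, lay at 258, 244 and 234 FPKM against 147, 51.9 and 105 FPKM (log2 fold change -1.39, adjusted p = 0.0198). KITLG and NELL2 had groups that did not overlap, and both passed the limit with limma-voom (adjusted p = 0.00668 and 0.00484) and when EWSR1::FLI1 low replicate 1 was left out (0.000244 and 0.003). FGF2, a ligand of FGFR1, had overlapping groups (log2 fold change 1.22, adjusted p = 0.163).

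Of the GDNF-family ligands GDNF, ARTN and PSPN were tested, and GDNF fell. It lay at 5.42, 4.20 and 6.02 FPKM in EWSR1::FLI1 high, against 1.16, 2.22 and 1.55 FPKM in EWSR1::FLI1 low, a 3.18-fold fall (log2 fold change -1.24, adjusted p = 0.00368). It lost its call without EWSR1::FLI1 high replicates 1, 2 and 3 (adjusted p = 0.017, 0.0116 and 0.023), without EWSR1::FLI1 low replicate 3 (0.0155) and without a filter (0.0131). ARTN and PSPN lay on opposite sides of 0 with groups apart, and neither passed (log2 fold change -0.76, adjusted p = 0.0366, and 0.72, adjusted p = 0.0878), although ARTN passed with limma-voom (-2.85, adjusted p = 0.00795). GFRA1, the co-receptor of GDNF itself, was not tested, at means of 0.307 and 0.409 FPKM. GFRA2, which presents neurturin to RET, lay at 10.5, 11.3 and 13.03 FPKM against 1.39, 1.87 and 1.21 FPKM. GFRA2 fell 7.80-fold (log2 fold change -2.35, SE 0.17, adjusted p = 9.51e-05), with the call standing whichever library was left out. Of the 8 co-receptors 3 were tested, and the other two did not pass. Over all genes 3.37% were called lower. DOK6, an adaptor that binds RET, fell 3.50-fold from 10.2 ± 0.257 to 2.92 ± 0.830 FPKM (SD, n = 3; log2 fold change -1.54, adjusted p = 0.000892), also in every fit with a library left out.

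**Figure D4:**
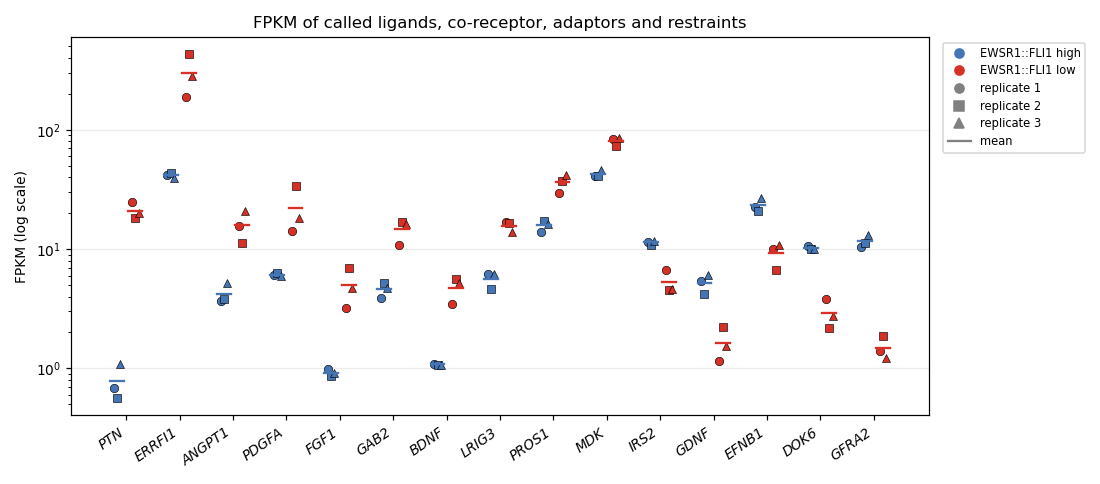
FPKM (log axis) in each of the 6 libraries for the 15 called genes of the ligand, co-receptor, adaptor and restraint lists. Points are libraries, with the marker shape giving the replicate number, and lines are group means. PTN (0.778 to 20.9 FPKM) and ERRFI1 (41.8 to 300.5 FPKM) lie farthest up and GFRA2 (11.6 to 1.49 FPKM) farthest down, and the groups are apart in all 15.

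Of 33 adaptors and docking proteins 31 were tested, and 1 rose and 2 fell, with a median log2 fold change of 0.04. These shares of 3.23% and 6.45% stand beside 4.51% and 3.37% of all genes. GAB2, a docking protein for PI3K and SHP2, rose from 4.62 ± 0.685 to 14.6 ± 3.28 FPKM (SD, n = 3; log2 fold change 1.46, adjusted p = 0.00204), and the adjusted p was 0.0125, 0.0118 and 0.0134 without EWSR1::FLI1 high replicates 1, 2 and 3. IRS2, the docking protein of the insulin and IGF1 receptors, fell from 11.4 ± 0.490 to 5.28 ± 1.20 FPKM (log2 fold change -0.99, adjusted p = 0.00698), and only the fit without EWSR1::FLI1 low replicate 1 kept that call when a library was left out (adjusted p at most 0.0387). IRS2 also lost it with median-ratio scaling, quantile normalization and no filter (adjusted p = 0.0139, 0.0191 and 0.0154).

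Of 13 proteins listed as restraints of these receptors 11 were tested, and 2 rose (18.2%, beside 4.51% of all genes). By limma 0 fell (beside 3.37%), with 1 lower at an unadjusted p below 0.05. ERRFI1, an inhibitor that binds the EGFR kinase domain, lay at 41.9, 43.8 and 39.7 FPKM in EWSR1::FLI1 high, against 189, 428 and 284 FPKM in EWSR1::FLI1 low. The groups were wide apart, although the EWSR1::FLI1 low samples differed much among themselves. ERRFI1 rose 7.19-fold (log2 fold change 2.74, SE 0.28, adjusted p = 0.000356) and was called whichever library was left out. LRIG3, a membrane protein of the family that modulates ERBB receptors, rose from 5.66 ± 0.871 to 15.8 ± 1.55 FPKM (SD, n = 3, log2 fold change 1.33, adjusted p = 0.00145), except without EWSR1::FLI1 high replicate 2 (adjusted p = 0.0142). Whether LRIG3 itself restrains these receptors was not tested. In these bulk samples, less RNA per cell and fewer cells expressing a gene cannot be told apart.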

How the data were processed

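Total RNA of 6 samples (3 per group) was depleted of ribosomal RNA and sequenced as paired-end reads. The submitters' processing notes name STAR 2.5.0b, Cufflinks 2.2.1, DESeq2 1.6.3, bedtools 2.17.0 and GRCh37. The deposited FPKM values per gene and library were made by the authors. Whether strand was used in counting is not given in the sources used here, so reads of receptors with exons overlapping a gene on the other strand (EGFR, ALK, EPHA1, EPHA5, EPHB2, EPHB4, ERBB2 and FGFR1) cannot be assigned with certainty. The authors' differential expression table holds their own fold changes and p-values, which were not used. Only its mean normalized count, a signal deposited by the authors, served to recover whole reads (100% of values above 0 within 0.1 read of a whole number).

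Values were tested as log2(FPKM + 1) with limma 3.58.1 (trended empirical Bayes, R 4.3.3) on genes with mean FPKM of at least 0.5, over all 6 samples, with EWSR1::FLI1 low against high as the only term. P-values were two-sided, adjusted by Benjamini-Hochberg over the 15504 genes tested, and called below 0.01. The script was tested on simulated data. Figures were drawn with matplotlib 3.10.9. A floor of 3 reads marked the limit of detection and covers counting error only. Reads per library ranged from 6980361 to 16658933. No pair of libraries of a group agreed within sampling noise. Chi-square per degree of freedom was 4.75 to 7.175 between EWSR1::FLI1 high libraries and 23.3 to 36.9 between EWSR1::FLI1 low libraries. Every receptor, ligand, adaptor or restraint called was named, as were the 10 receptors of highest mean, all other receptors at least in a count, and ligands of the receptors described. The ligands to describe among those not called were picked after their values were seen. Alternatives were a pseudocount of 0.1, no filter, a mean of at least 1 FPKM, median-ratio scaling, quantile normalization, no trend, a replicate block, limma-voom on recovered reads, a limit of 0.05 on the adjusted p and each library left out. The members and gene lists were chosen with earlier results of these data known.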

Additional observations from a re-analysis of the deposited data

How the results depend on the processing

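Of the 6 receptors called higher, all 6 were called with a pseudocount of 0.1, a mean of at least 1 FPKM, no trend, median-ratio scaling and limma-voom. Without a filter (24488 genes tested) 2 were called, PDGFRA and AXL, and with quantile normalization 4, PDGFRB and EPHB2 being lost. Leaving out 1 library gave 1 to 7 receptors higher and 0 to 3 lower. Receptors called lower numbered 2 with limma-voom and 3 at a limit of 0.05. Ligands called higher numbered 14 at 0.05 and 2 to 13 with a library left out. Ligands called lower numbered 1 without a filter, 5 with limma-voom, 5 at 0.05 and 0 to 5 with a library left out. Adaptors and restraints called higher numbered 5 with quantile normalization, 6 at 0.05 and 1 to 5 with a library left out, and those called lower 1 without a filter, 1 with median-ratio scaling and 1 to 2 with a library left out.

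Over all genes the calls were 700 higher and 522 lower. They were 456 and 297 without a filter, 1530 and 1537 at 0.05, and 287 to 1452 and 156 to 726 with a library left out, with 1452 and 726 coming from the fit without EWSR1::FLI1 low replicate 1. Lower calls numbered 813 with median-ratio scaling, 1000 with quantile normalization and 784 with limma-voom. The cause of these shifts was not tested.

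Whether the replicate numbers pair the samples was not settled, and the main fit had no term for them. Same-numbered samples deviated together with r of 0.271, 0.0889 and 0.124 across genes, other pairs with -0.289 to 0.189, and not every sample correlated best with its own number. With the replicate block 6 receptors were called higher and 1 lower (EPHA5), with 9 ligands higher (HBEGF and EFNA1 added, adjusted p = 0.00562 and 0.00805) and 3 lower (NELL2 added, 0.00758), and 916 genes higher and 786 lower over all.

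Estimates near 0 changed sign: EPHA3 was 0.08 with quantile normalization, and EPHB3 was 0.04 and TYRO3 0.00 with median-ratio scaling. With a library left out the log2 fold changes ran from -0.02 to 0.12 for DDR2, -0.35 to 0.25 for EPHA3, -0.28 to 0.02 for EPHA6, -0.42 to 0.18 for EPHA7, -0.28 to 0.20 for EPHB3, -0.52 to 0.07 for KIT, -0.50 to 0.15 for MERTK -0.26 to 0.09 for TYRO3 and -0.10 to 0.02 for the ligand TGFA. FGF12 ran from -0.12 to 0.03 with a library left out and was 0.01 with median-ratio scaling. No other receptor or partner named in the comparisons changed direction under these alternatives.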
